A study of Mus musculus with 12 samples.

Results

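The 10 genes examined here encode the transcription factors that drive epithelial-mesenchymal transition (EMT), Zeb1, Zeb2, Snai1, Snai2, Twist1, Twist2 and Prrx1, together with the cadherins Cdh1 and Cdh2 and the intermediate filament protein Vim. They were taken by name from the 17335 genes of the 2 deposited count tables, and no measured value entered the rule. The list was drawn up with earlier results of these data known. All 10 have a row in the table for KPC4, a mouse pancreatic adenocarcinoma cell line, and 9 have one in the table for PSC4, a mouse pancreatic stellate cell line. Cdh1 was not analysed here in PSC4.

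The study passed culture medium between the lines. For the Control-SU and Gem-SU groups, KPC4 cells received vehicle or 10 µM gemcitabine for 6 h, were washed, and conditioned starvation medium for 14 h, and PSC4 cells then spent 24 h in that medium. For the Control-PSC-SU and Gem-PSC-SU groups, PSC4 cells first spent 6 h in one of those media, were washed, and conditioned fresh starvation medium for 18 h, and KPC4 cells that had not themselves received drug spent 24 h in this second medium. Each of the 4 groups holds 3 biological replicates, which gives 12 libraries of total RNA. The labels give no genotype or origin for either line, and each is a single line of its kind. Gemcitabine is a nucleoside analogue used against pancreatic cancer.

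EMT is the loss of epithelial junctions and polarity in favour of a migratory, fibroblast-like state, and it is reversible. Proteins of the Zeb and Snail families bind E-box sequences and repress epithelial genes, Cdh1 (E-cadherin) among them. Twist and Prrx1 proteins are widely expressed in mesenchyme, and a switch from Cdh1 to Cdh2 (N-cadherin) and gain of Vim are the usual readouts in carcinoma cells. Stellate cells are mesenchymal from the start, so these genes are part of their normal programme rather than a transition.

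Library totals lay between 26354328 and 38138356 counts, and a level of 1 CPM, counts-per-million of a total scaled by the TMM factor, stood for 26.5 to 38.5 counts. The marker genes fitted the line labels with some defining members low. In PSC4 with Control-SU, the fibroblast markers Pdgfra and Col1a1 were at 1258 ± 138 and 3388 ± 503 CPM (SD, n = 3), while Acta2, the actin of activated stellate cells, was at 15.7 ± 2.75 CPM and Des at 2.84 ± 0.15 CPM. In KPC4 with Control-PSC-SU, the keratins Krt8 and Krt19 were at 2835 ± 237 and 1816 ± 355 CPM, while the epithelial surface protein Epcam was at 8.89 ± 5.67 CPM. The summed level of the 8 ductal epithelial markers measured in PSC4 lay between 16.1 and 17.0 CPM with Control-SU. With Gem-SU it lay between 18.3 and 23.0 CPM, so the groups did not overlap. The single markers did not all move together. In the edgeR test described below, 2 of their 5 tested genes were higher (Krt19 and Grhl2) and 1 lower (Muc1, log2 fold change -0.79). Over all genes tested 24.3% were higher and 22% lower. Grhl2 and Krt8 passed the filter on low counts only through Gem-SU. The summed level of the 11 ductal epithelial markers measured in KPC4 lay between 5377 and 6909 CPM.

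**Figure D1:**
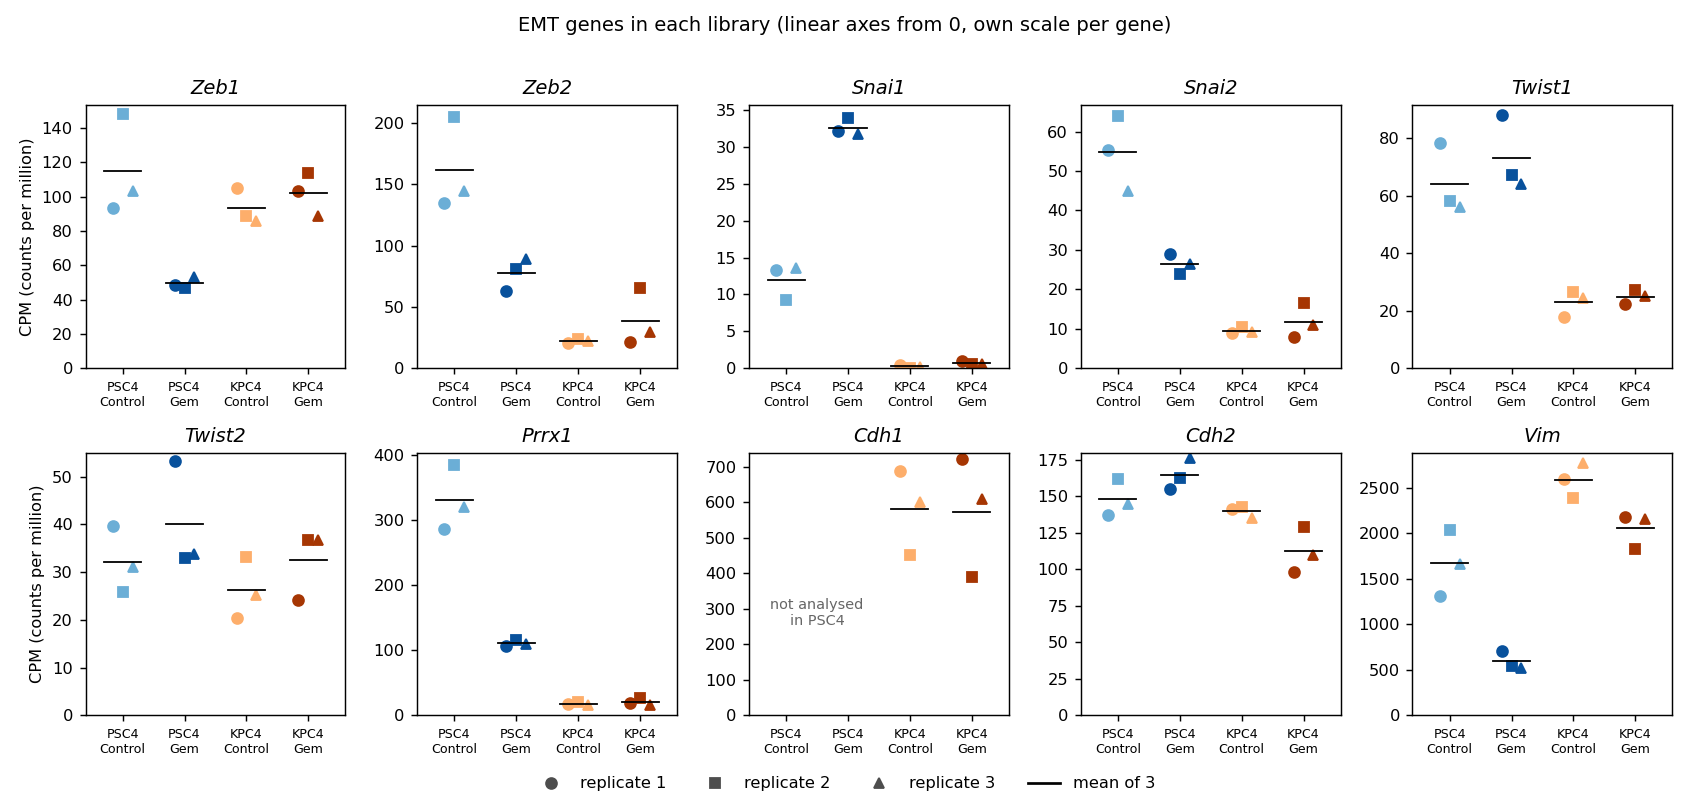
CPM of each gene in each of the 12 libraries, 1 panel per gene with its own linear axis from 0. Columns are the groups, symbols the replicates and black lines the means of 3. In PSC4, Zeb1, Zeb2, Snai2, Prrx1 and Vim sit lower with Gem-SU and Snai1 sits higher, with no overlap between groups. The KPC4 groups lie close together for most genes.

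Medium from gemcitabine-treated tumour cells moved 6 of the 9 genes in PSC4. Snai1 rose 2.72-fold, whereas Prrx1, Vim, Zeb1, Zeb2 and Snai2 fell to between 0.335 and 0.483 of their control levels. Twist1, Twist2 and Cdh2 did not pass the test. Calls were at an adjusted p below 0.05 in edgeR's quasi-likelihood test over 13347 genes, of which 46.3% were called in this comparison, 24.3% higher and 22% lower. The groups did not overlap for the same 6 members, and for 56.4% of all genes tested. The members' median log2 fold change was -1.05, beside -0.00 over all genes tested.

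Snai1, the Snail-family repressor, was at 13.3, 9.22 and 13.5 CPM in the Control-SU libraries and at 32.2, 34.0 and 31.7 CPM in the Gem-SU libraries. Every Gem-SU library lay above every control library, and the Gem-SU replicates spread little (SD 1.20). The log2 fold change was 1.44 ± 0.19 (SE, edgeR adjusted p = 6.65e-04). Of all genes tested, 91.7% had a smaller log2 fold change.

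Snai2 (Slug), the other Snail-family repressor measured, moved the opposite way. It was at 55.4, 63.9 and 44.9 CPM with Control-SU and at 29.0, 23.9 and 26.5 CPM with Gem-SU, so the groups did not overlap. The log2 fold change was -1.05 ± 0.17 (SE, edgeR adjusted p = 0.00172). The ratio of Snai1 to Snai2 counts within a library was accordingly 0.240, 0.144 and 0.301 with Control-SU and 1.11, 1.42 and 1.20 with Gem-SU. Snai2 had more counts than Snai1 in all 3 control libraries and fewer in all 3 Gem-SU libraries.

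Prrx1, a homeodomain factor of mesenchyme, showed the largest fall among the members. It was at 285, 384 and 319 CPM with Control-SU and at 106, 115 and 110 CPM with Gem-SU. The lowest control library stood far above the highest Gem-SU library. The log2 fold change was -1.58 ± 0.16 (SE, edgeR adjusted p = 1.97e-04), and 4.93% of all genes tested had a smaller value. Over the 12 libraries of both lines, the genes whose log2 CPM ran closest to that of Prrx1 were Chpt1, Pdgfra and Eya1 (Pearson r 0.992, 0.990 and 0.990 among 12618 genes compared). Itga10, Slc2a6 and Notch3 ran closest to Snai1 (r 0.988, 0.988 and 0.987). These correlations span 2 lines with separate levels and are given as a description.

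The Zeb factors, zinc-finger homeodomain repressors, fell together. Zeb1 was at 93.2, 148 and 103 CPM with Control-SU and at 48.4, 46.6 and 53.3 CPM with Gem-SU. Zeb2 was at 135, 205 and 144 CPM with Control-SU and at 62.8, 81.1 and 88.7 CPM with Gem-SU. Replicate 2 of Control-SU was the highest library for both, and the groups did not overlap for either. The log2 fold changes were -1.22 ± 0.19 for Zeb1 (SE, edgeR adjusted p = 0.00132) and -1.06 ± 0.21 for Zeb2 (edgeR adjusted p = 0.00361). The Zeb2 to Zeb1 count ratio was 1.41 ± 0.034 with Control-SU and 1.57 ± 0.24 with Gem-SU, with overlapping replicates.

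Vim, the main intermediate filament protein of mesenchymal cells, was at 1313, 2038 and 1662 CPM with Control-SU and at 710, 545 and 525 CPM with Gem-SU. All Gem-SU libraries lay below all control libraries. The log2 fold change was -1.49 ± 0.23 (SE, edgeR adjusted p = 0.00109). It fell beside the fibroblast marker list, whose summed level went from 6104 to 7397 CPM with Control-SU to 1933 to 2962 CPM with Gem-SU. Of the list's 11 tested genes 8 were lower and 0 higher, against 22% lower and 24.3% higher over all genes tested. In cultures measured in bulk, fewer cells of a type and less RNA per cell cannot be told apart, and the part of this shift in the members' falls was not tested.

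Twist1, Twist2 and Cdh2 overlapped between the PSC4 groups. Twist1, a basic helix-loop-helix factor, was at 78.3, 58.3 and 56.2 CPM with Control-SU and at 88.1, 67.4 and 64.1 CPM with Gem-SU, and its log2 fold change was 0.19 (95% interval -0.24 to 0.62). Its relative Twist2 was at 39.6, 26.0 and 31.2 CPM and at 53.4, 33.0 and 33.7 CPM, with a log2 fold change of 0.31 (95% interval -0.23 to 0.86). In both genes replicate 1 was the highest library of each group. Cdh2 was at 137, 162 and 145 CPM with Control-SU and at 155, 163 and 176 CPM with Gem-SU, with a log2 fold change of 0.15 (95% interval -0.16 to 0.47). None of the 3 intervals excludes a modest change in either direction.

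**Figure D2:**
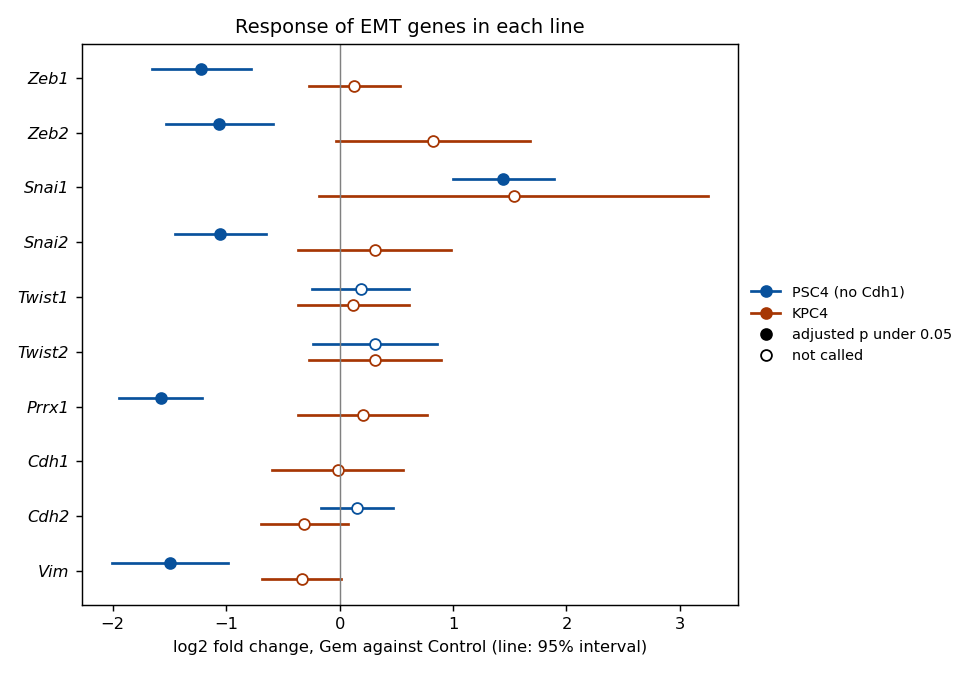
log2 fold change of each gene, Gem against Control, in PSC4 (blue) and KPC4 (orange), with 95% intervals from edgeR. Filled points had an adjusted p below 0.05: 6 of 9 genes in PSC4 and 0 of 10 in KPC4.

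In the authors' deposited table for PSC4 the same 6 genes had an adjusted p below 0.05 in the same directions, with log2 fold changes of 1.41 for Snai1, -1.53 for Prrx1, -1.58 for Vim, -1.03 for Zeb1, -0.87 for Zeb2 and -1.08 for Snai2. In their deposited table for KPC4 none of the 10 had, and the smallest adjusted p was 0.249, for Zeb2.

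Medium conditioned by Gem-SU-exposed PSC4 cells moved none of the 10 genes past the threshold in KPC4. The same test called 0 of 13236 genes (0%), with 2251 genes (17%) and 0 members at an unadjusted p below 0.05. All 10 members passed the filter on low counts, Snai1 only through its Gem-PSC-SU libraries, and all 9 passed in PSC4 in both groups. Same-numbered KPC4 libraries deviated together, and in a fit blocked on replicate number 1171 genes (8.85%) were called, again with 0 members. DESeq2 called 822 genes and 0 members.

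Cdh1, the adhesion molecule of epithelial cells, was at 688, 452 and 600 CPM in KPC4 with Control-PSC-SU and at 722, 389 and 607 CPM with Gem-PSC-SU. Replicate 2 was the lowest library in both groups, and the groups overlapped. The log2 fold change was -0.02 (95% interval -0.59 to 0.56, edgeR adjusted p = 0.981), and leaving out single libraries moved it from -0.22 to 0.20.

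Cdh2 was at 141, 143 and 135 CPM with Control-PSC-SU and at 98.3, 129 and 110 CPM with Gem-PSC-SU. Vim was at 2601, 2391 and 2773 CPM and at 2176, 1831 and 2154 CPM. For both genes every Gem-PSC-SU library lay below every control library, but the log2 fold changes of -0.31 (95% interval -0.70 to 0.07, edgeR adjusted p = 0.379) and -0.33 (95% interval -0.68 to 0.02, edgeR adjusted p = 0.312) did not pass the test. Snai1 showed the same separation upward at very low counts, with 15, 2 and 6 counts in the control libraries and 27, 19 and 13 in the Gem-PSC-SU libraries. Its log2 fold change was 1.54 (95% interval -0.18 to 3.25, edgeR adjusted p = 0.341). Groups did not overlap for these 3 of 10 members, of which Snai1 passed the count filter only through Gem-PSC-SU, and for 22.8% of all genes tested. The Cdh1 to Cdh2 count ratio was 4.87, 3.17 and 4.45 with Control-PSC-SU and 7.35, 3.02 and 5.53 with Gem-PSC-SU, with replicate 2 lowest in each group.

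Zeb2 had the largest positive log2 fold change among the members above 1 CPM, 0.82 (95% interval -0.04 to 1.68, edgeR adjusted p = 0.310). It was at 20.2, 23.4 and 22.1 CPM with Control-PSC-SU and at 21.4, 65.6 and 29.2 CPM with Gem-PSC-SU. The value rested on replicate 2 of Gem-PSC-SU, and without it the log2 fold change was 0.21. Zeb1, at 105, 89.1 and 86.1 CPM and at 104, 114 and 89.0 CPM, had a log2 fold change of 0.13 (95% interval -0.27 to 0.53).

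Snai2, Twist1, Twist2 and Prrx1 had log2 fold changes between 0.12 and 0.31 in KPC4, with overlapping groups. Their means with Control-PSC-SU were 9.47, 22.8, 26.2 and 17.8 CPM. Snai2 and Prrx1 were highest in replicate 2 of Gem-PSC-SU, at 16.6 and 27.0 CPM. Replicate 2 was the highest library of both KPC4 groups for 6 of the 10 members (Zeb2, Snai2, Twist1, Twist2, Prrx1 and Cdh2) and the lowest of both for Cdh1 and Vim. It was also the lowest of both for 7 of 12 epithelial junction and keratin genes, which were Epcam, Cldn3, Cldn4, Cldn7, Ocln, Dsp and Pkp3. The matching shares over all genes were not computed, so these counts have no background beside them.

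**Figure D3:**
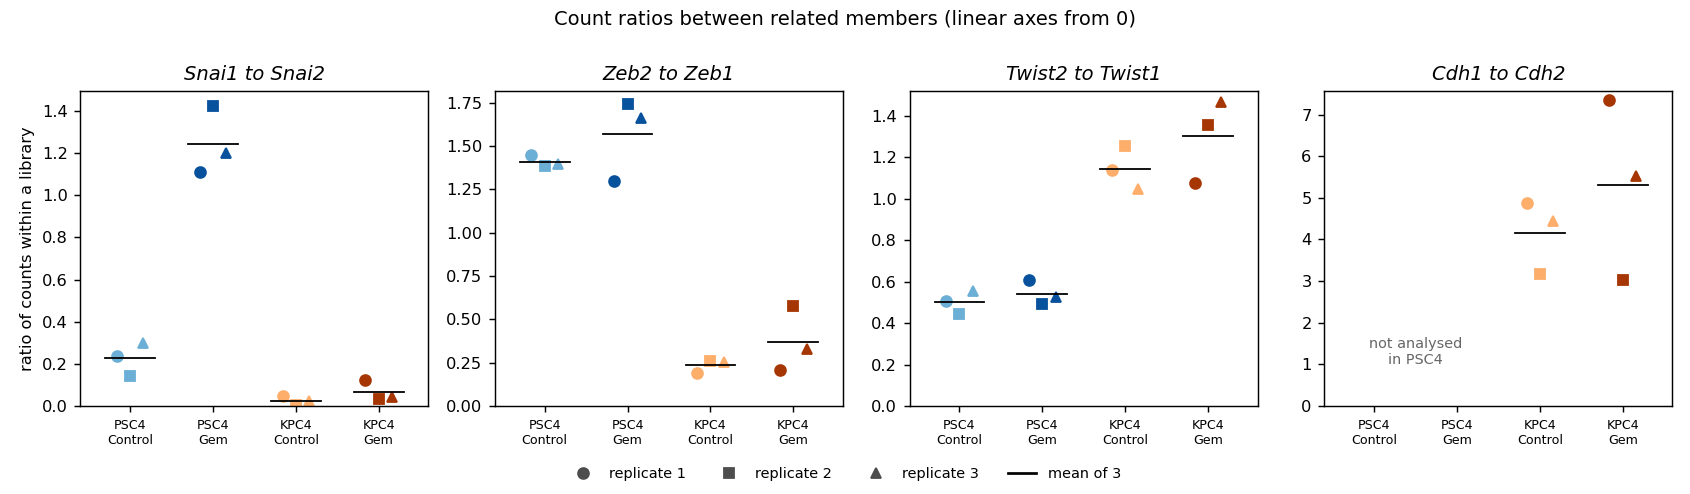
Ratio of counts within each library for 4 pairs of related genes, by group, with 1 point per replicate, a black line at the mean of 3, and linear axes from 0. The Snai1 to Snai2 ratio in PSC4 is at most 0.301 in the Control-SU libraries and at least 1.11 in the Gem-SU libraries. The other pairs overlap between Control and Gem in each line.

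The response differed between the lines for 5 of the 9 genes measured in both, as tested by the interaction term over 13632 genes in the 12 libraries, of which 9.85% were called and 5.1% lower. The difference, PSC4 minus KPC4, was -1.39 ± 0.26 for Zeb1 (SE, edgeR adjusted p = 0.00592), -1.92 ± 0.45 for Zeb2 (0.0196), -1.40 ± 0.34 for Snai2 (0.0225), -1.82 ± 0.28 for Prrx1 (0.00198) and -1.21 ± 0.27 for Vim (0.0157), all on the log2 scale. Without replicate 2 of PSC4 Control-SU the edgeR adjusted p of Zeb2 was 0.0538, and that of Snai2 was between 0.0544 and 0.0647 without any 1 of 4 libraries. These 4 were replicate 2 of PSC4 Control-SU, replicate 2 of PSC4 Gem-SU, and replicates 1 and 3 of KPC4 Control-PSC-SU. Line, medium and step of the transfer cannot be told apart in this contrast. A replicate block left the members called as they were in all 4 comparisons, 6 in PSC4 (54.4% of all genes), 0 in KPC4, 6 between the lines (43.8%) and 5 in the interaction (21.9%).

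The difference was not called for the other 4 genes. Snai1 had a difference of -0.14 (95% interval -1.31 to 1.02), so its rise in PSC4 was not shown to differ from its change in KPC4. Twist1, Twist2 and Cdh2 had differences of 0.02 (95% interval -0.60 to 0.64), -0.04 (-0.84 to 0.75) and 0.42 (-0.02 to 0.86).

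Levels differed between the control groups of the lines, and line, medium and step of the transfer cannot be told apart here either. In their control media, 6 of 9 genes were called between PSC4 and KPC4, 5 higher and 1 lower in PSC4, against 42.9% of 13632 genes, 22.3% higher and 20.6% lower. The groups did not overlap for these 6, and for 57.2% of all genes. Snai1 was at 13.5, 9.23 and 13.7 CPM in PSC4 and at 0.439, 0.0608 and 0.202 CPM in KPC4, both scaled over the 12 libraries, a log2 difference of 5.66 (95% interval 4.67 to 6.65, edgeR adjusted p = 3.09e-07). Prrx1 was higher in PSC4 by 4.20 on the log2 scale, Zeb2 by 2.87, Snai2 by 2.52 and Twist1 by 1.48. On this scale Prrx1 was at 333 ± 48.3 CPM in PSC4 and 18.1 ± 2.61 CPM in KPC4.

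Vim ran the other way. It was at 1332, 2042 and 1688 CPM in control PSC4 and at 2644, 2453 and 2793 CPM in control KPC4, so that every library of the carcinoma line lay above every library of the stellate line. The log2 difference was -0.64 ± 0.19 (SE, edgeR adjusted p = 0.0158). Without replicate 1 of PSC4 Control-SU the adjusted p of Vim was 0.0730, and without replicate 3 of KPC4 Control-PSC-SU it was 0.0584.

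Zeb1, Twist2 and Cdh2 were not called between the lines. Zeb1 was at 94.5, 149 and 105 CPM in PSC4 and at 107, 91.4 and 86.7 CPM in KPC4 (log2 difference 0.29, 95% interval -0.11 to 0.68). Cdh2 was at 149 ± 11.8 and 142 ± 5.38 CPM (log2 difference 0.07, 95% interval -0.24 to 0.38). Twist2 had a log2 difference of 0.29 (95% interval -0.28 to 0.85). KPC4 thus had Cdh1, Krt8 and Krt19 side by side with Vim, Zeb1 and Cdh2 in the same libraries.

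**Figure D4:**
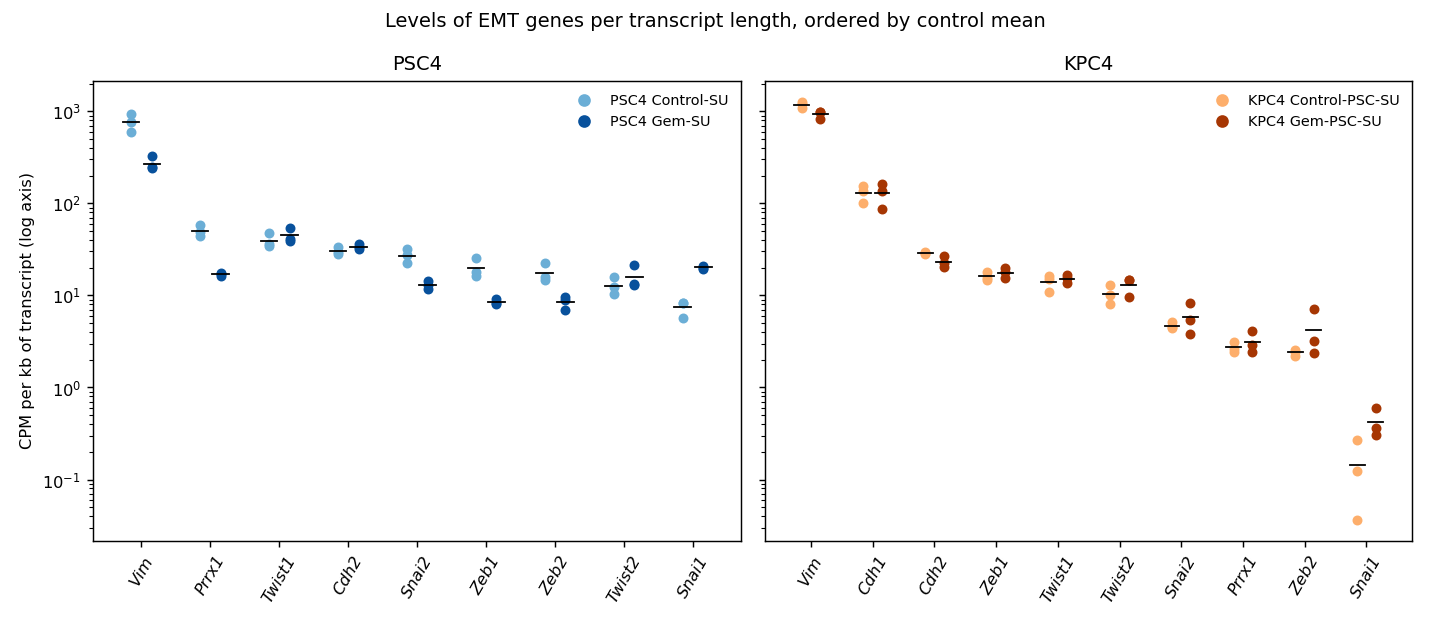
CPM per kb of transcript in each library on a log axis, with genes in order of their control mean, PSC4 on the left and KPC4 on the right. Points are libraries and black lines means of 3. Snai1 goes from last in PSC4 with Control-SU (7.41) to the 4th place with Gem-SU (20.1), and stays last in KPC4.

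Levels of different genes were compared as CPM per kb of transcript. In PSC4 with Control-SU the order was Vim at 762 CPM per kb, Prrx1 at 50.5, Twist1 at 39.5, Cdh2 at 30.5, Snai2 at 27.1, Zeb1 at 19.8, Zeb2 at 17.7, Twist2 at 12.8 and Snai1 at 7.41. Vim, the step from Twist1 to Cdh2 and the last place of Snai1 were separated from their neighbours in every library, whereas the other neighbouring pairs overlapped. With Gem-SU, Twist1 at 45.0 and Cdh2 at 33.9 followed Vim at 271, Snai1 stood 4th at 20.1, and Zeb1 and Zeb2, at 8.52 and 8.50, came last and overlapped. The order in KPC4 with Control-PSC-SU was Vim at 1180, Cdh1 at 131, Cdh2 at 28.8, Zeb1 at 16.1, Twist1 at 14.0, Twist2 at 10.4, Snai2 at 4.69, Prrx1 at 2.73, Zeb2 at 2.40 and Snai1 at 0.142. Zeb1 overlapped Twist1, Twist1 overlapped Twist2 and Prrx1 overlapped Zeb2, while the first 3 places were apart.

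The E-box spelled CAGGTG on one strand and CACCTG on the other is the classical recognition sequence of Zeb and Snail proteins, and it was searched in the RefSeq promoters (GRCm38.p6) from 250 bases before to 50 bases after each start. It was present in 20.2% of 32851 promoters and in 1 of the 9 promoters held for 6 members, that of Snai1. Zeb2 has several of the 9, in part overlapping. The promoters of Cdh1, Cdh2, Snai2 and Zeb1 were not searched. Among the epithelial junction and keratin genes, 11 of 13 promoters (84.6%) held the E-box. By gene this was 9 of 10, beside 22.6% of all genes. In the other related lists described below, between 0.0% and 33.3% of promoters held it. The Snai1, Prrx1 and Vim promoters are shown because these genes led the rises and falls in PSC4, and the Epcam promoter as a junction gene with a pair of boxes. Capitals mark the E-box. The windows are chr2:167537945-167538244 on the plus strand for Snai1, chr1:163313601-163313900 on the minus strand for Prrx1, chr2:13574061-13574360 on the plus strand for Vim and chr17:87635729-87636028 on the plus strand for Epcam.
Snai1: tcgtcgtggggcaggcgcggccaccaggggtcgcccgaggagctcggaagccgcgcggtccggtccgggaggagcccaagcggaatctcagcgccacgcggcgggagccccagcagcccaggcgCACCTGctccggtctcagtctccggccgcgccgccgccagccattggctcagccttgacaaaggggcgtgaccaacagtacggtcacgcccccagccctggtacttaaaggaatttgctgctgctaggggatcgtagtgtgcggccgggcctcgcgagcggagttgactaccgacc
Prrx1: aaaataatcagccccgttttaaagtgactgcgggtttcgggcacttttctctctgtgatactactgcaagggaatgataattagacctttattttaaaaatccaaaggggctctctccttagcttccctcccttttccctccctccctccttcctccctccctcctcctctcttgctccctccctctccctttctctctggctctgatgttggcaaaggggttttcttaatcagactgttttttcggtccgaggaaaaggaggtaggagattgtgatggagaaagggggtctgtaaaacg
Vim: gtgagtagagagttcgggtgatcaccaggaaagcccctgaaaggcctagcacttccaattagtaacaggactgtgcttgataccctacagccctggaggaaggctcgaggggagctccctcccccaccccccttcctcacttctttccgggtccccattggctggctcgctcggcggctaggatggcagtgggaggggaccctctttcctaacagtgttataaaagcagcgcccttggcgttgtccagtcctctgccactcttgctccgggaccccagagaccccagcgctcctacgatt
Epcam: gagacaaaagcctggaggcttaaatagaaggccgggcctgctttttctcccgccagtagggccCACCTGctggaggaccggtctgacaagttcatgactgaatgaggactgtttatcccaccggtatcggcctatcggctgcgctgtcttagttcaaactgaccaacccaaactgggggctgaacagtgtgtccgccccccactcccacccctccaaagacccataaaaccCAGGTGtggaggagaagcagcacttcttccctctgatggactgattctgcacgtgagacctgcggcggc
The box of Snai1 begins 126 bases before the start, and those of Epcam 187 and 19 bases before it. A match describes letters only.

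Around the members, the other EMT genes of PSC4 were counted in 6 lists, against 24.3% higher and 22% lower over all genes. TGF-beta ligands are the best known inducers of EMT. The list of TGF-beta ligands, receptors and SMADs, which also holds inhibitors such as Smad7, had 3 higher and 3 lower of 12. Smad7 rose from 6.54 ± 1.82 to 43.1 ± 6.29 CPM (log2 fold change 2.72), and Skil (1.15) rose too. Of the ligands only Tgfb3 (-0.51) was called, as lower. Of the receptors, Tgfbr3 (-1.83) and Tgfbr2 (-1.03) fell, and Tgfbr1 (0.51) rose. Other EMT-associated transcription factors had 6 higher and 3 lower of 11 with a median log2 fold change of 0.77. Foxc2 (2.02) and Sox9 (1.04) rose, and Tcf4 (-1.83), an E-protein partner of Twist, fell.

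Mesenchymal matrix and cytoskeleton genes had 2 higher and 7 lower of 12, with a median log2 fold change of -0.92. This list shares genes with the fibroblast marker list, Col1a1 and Acta2 among them, so their counts are not separate. The actin-binding Tagln rose from 3.05 ± 0.39 to 28.9 ± 3.35 CPM. The collagen crosslinking enzyme Lox fell from 874 ± 84.8 to 149 ± 57.7 CPM. Among other cadherins and catenins 0 were higher and 2 lower of 7, which were Cdh13 (log2 fold change -1.47) and Cdh11 (-0.96), while Cdh6 at 1.12 was not called.

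Of the epithelial-state regulators, 6 were tested in PSC4, and 3 of these, the grainyhead factors Grhl1, Grhl2 and Grhl3, entered the test only through their Gem-SU levels and could only come out higher. Of the other 3, Klf5, an epithelial zinc-finger factor, rose from 12.5 ± 3.90 to 52.6 ± 0.42 CPM, while Esrp2 (log2 fold change 0.80) and Foxa1 (0.58) were not called. Grhl1 went from 0.176 ± 0.16 to 9.49 ± 2.97 CPM. Grhl3 had no counts in the Control-SU libraries and 1.66 ± 0.29 CPM with Gem-SU, at least 17.8-fold higher than a floor of 3 counts per library, and Grhl2 went from 0.272 ± 0.23 to 1.69 ± 0.83 CPM. Among 5 junction and keratin genes tested, Dsp and Krt8 also passed the filter only through Gem-SU, and 1 was called, Krt19, which rose from 2.95 ± 0.81 to 7.64 ± 1.28 CPM. The tight junction scaffold Tjp1 (log2 fold change -0.15) and the desmosomal Pkp3 (-0.51) were not called.

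In KPC4 none of the 6 lists held a called gene. With the replicate block 5 of their 59 tested genes were called, near the 8.85% of all genes. They were Smad7 (log2 fold change 0.84, edgeR adjusted p = 0.0183), Grhl1 (3.21, 0.0170), Elf3 (1.25, 0.0252), Klf5 (0.59, 0.0324) and Cdh13 (-0.65, 0.0245), where the log2 fold changes are those without the block. Grhl1 entered the KPC4 test only through its Gem-PSC-SU levels and could only come out higher. Elf3 and Klf5 are epithelial transcription factors.

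**Figure D5:**
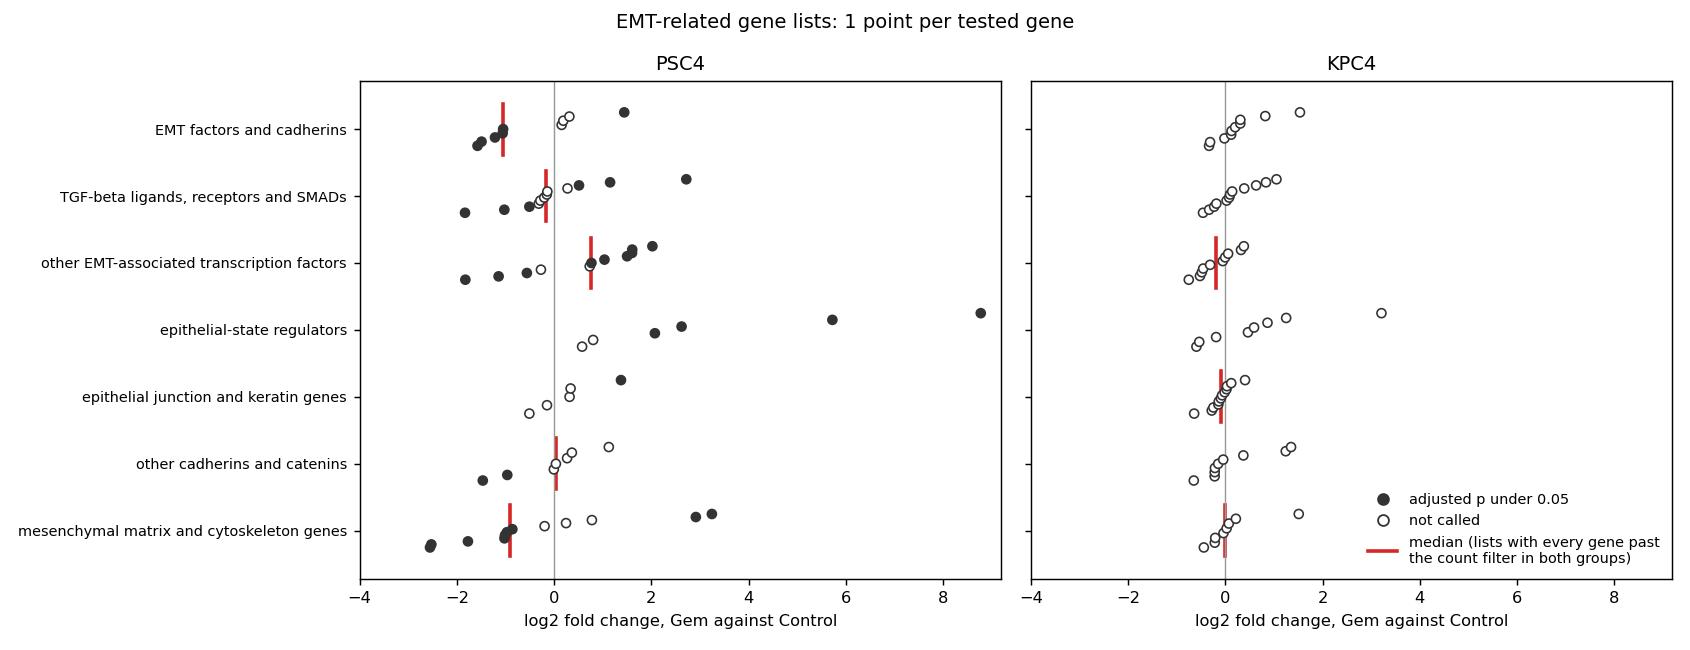
log2 fold change, Gem against Control, of every tested gene in the members' list and 6 related lists, PSC4 left and KPC4 right. Filled points had an adjusted p below 0.05, and red lines are medians, drawn where every tested gene passed the count filter in both groups. In PSC4 the members and the mesenchymal genes have medians of -1.05 and -0.92. In KPC4 no point is filled.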

How the data were processed

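Per the labels, RNA from 12 cultures went through an Illumina NovaSeq X Plus run. The authors deposited 1 table of raw counts per gene for each line, in whole numbers, and comparison tables with log2 fold changes and p-values, which are used as deposited. The submitters' processing notes name FastQC, Trim Galore 0.6.10, cutadapt 5.2, Salmon, R 4.5.1, DESeq2 and GRCm39. Their order and the annotation are not given in the sources used here. Salmon counts are estimates, so the whole numbers may be rounded. The smallest row total was 11 in KPC4 and 0 in PSC4.

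Symbols came from GENCODE M21 and matched 16329 of 16386 PSC4 and 15265 of 15309 KPC4 identifiers. Counts were tested with edgeR 4.0.16 in R 4.3.3 (filterByExpr, TMM, robust quasi-likelihood, Benjamini-Hochberg over all genes tested, threshold 0.05), per line, and over the 14360 genes of both tables for the line and interaction terms. CPM used TMM-scaled totals. Lengths were those of the longest coding transcript. DESeq2 1.42.0, no filter, at least 10 counts in every library, DESeq2 size factors, a non-robust fit, 1 fit over 12 libraries, a replicate block and leaving out each library were alternatives. The scripts were tested on simulated data.

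Same-numbered KPC4 libraries deviated together (correlations 0.351, 0.436 and 0.211), and PSC4 ones did not all do so (0.428, -0.05 and 0.10). The labels say only that replicates are biological. The members and lists were chosen with earlier results of these data known. All 10 members are named, and from each list the 3 genes with the smallest p in PSC4, of which 1 is not reported here. Tgfbr1, Elf3, Grhl2, Esrp2, Foxa1, Kdr, Pecam1, Vwf, Cela1 and Bhlha15 were named after their values were seen. The same holds for Tgfb3, Skil, Klf8, Id1, Id2, Hmga2, Foxc1, Sox4 and Muc1.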

Additional observations from a re-analysis of the deposited data

Results flagged for a closer look

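Of the 9 genes measured in both lines, 5 responded differently in PSC4 and KPC4 by the interaction term, which called 9.85% of all genes, 5.1% lower. Zeb2 kept the call in 11 of the 12 fits that left out 1 library, and Snai2 in 8. Prrx1 had a difference, PSC4 minus KPC4, of -1.82 on the log2 scale, with a fall in PSC4 and 0.20 in KPC4. Zeb2 had -1.92, from -1.06 in PSC4 and 0.82 in KPC4, and the KPC4 value rested on replicate 2 of Gem-PSC-SU. Zeb1 had -1.39, Snai2 -1.40 and Vim -1.21. Vim was below its control in both lines, by -1.49 in PSC4 and by -0.33, not called, in KPC4.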

How the results depend on the processing

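In PSC4 the 6 called members kept direction and side of the threshold under all 13 alternatives each, and Twist1, Twist2 and Cdh2 were called under none. The replicate block changed no member's call in any of the 4 comparisons. It moved the genes called in KPC4 from 0 to 1171 and those of the interaction from 1343 to 2988. For the same counts DESeq2 gave 822 and 2145, and 1 fit over 12 libraries gave 610 for KPC4. Leaving out single libraries gave 4061 to 6826 genes in PSC4 (6177 with all, 4061 without replicate 2 of Gem-SU), 0 to 1129 in KPC4, 4954 to 6272 for the line difference (5842 with all) and 610 to 1993 for the interaction. Called members of the interaction then ranged from 3 to 5, the 3 without replicate 2 of PSC4 Control-SU being Prrx1, Vim and Zeb1, and those of the line difference from 5 to 6, with Vim lost.

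Some uncalled log2 values changed sign when 1 library was left out. They ranged in KPC4 from -0.026 to 0.53 for Snai2, -0.031 to 0.25 for Twist1, -0.046 to 0.36 for Prrx1 and -0.22 to 0.20 for Cdh1. For the line difference Cdh2 ranged from -0.052 to 0.12, and for the interaction Snai1 from -0.98 to 0.31, Twist1 from -0.15 to 0.19 and Twist2 from -0.32 to 0.13. The cause was not tested. Snai1 gave no value in KPC4, between lines or in the interaction under at least 10 counts in every library, since 2 of its 6 libraries had fewer, and Cdh1 none in the fit over 12 libraries. Depth limits Snai1 in KPC4, where 2 to 27 counts leave an interval on the log2 scale of -0.18 to 3.25.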

Other observations

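Markers of other cell types were counted in both lines. The 4 leukocyte markers with a row in the PSC4 table summed to between 3.66 and 6.03 CPM in its libraries, and the 3 in the KPC4 table to between 0.474 and 2.07 CPM. The 6 fibroblast markers with a row in the KPC4 table summed to between 17.5 and 33.0 CPM in its 6 libraries. In PSC4 the sum was 1933 to 7397 CPM, over 11 markers with a row, so the sets of genes differ. In PSC4 the 5 endothelial markers with a row summed to between 1.57 and 2.87 CPM with Control-SU and between 3.53 and 5.65 CPM with Gem-SU, and the 2 acinar markers to between 7.96 and 15.8 CPM and between 1.93 and 3.72 CPM. These groups did not overlap. Kdr, the main endothelial VEGF receptor, was called higher (log2 fold change 2.58), having passed the count filter only through Gem-SU. The endothelial markers Pecam1 (1.47) and Vwf (-0.90) were not called. Pecam1 passed the count filter only through Gem-SU, and Vwf only through Control-SU. The elastase gene Cela1 was called lower (-2.37). The other acinar marker, Bhlha15, was called higher, having also passed the filter only through Gem-SU. It had at most 3 counts in each Control-SU library and was at 0.532 CPM with Gem-SU, at least 5.72-fold above that floor. The part of these genes in the members' changes was not tested. Grhl1, an epithelial-state regulator, was below 1 CPM on average in both control groups. It was at 0.176 ± 0.16 CPM in PSC4 and 0.250 ± 0.25 CPM in KPC4 (SD, n = 3), and at 9.49 ± 2.97 and 2.36 ± 1.90 CPM in the Gem groups. In each line Grhl1 passed the count filter only through the Gem group.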
